A study of Mus musculus with 10 samples.

Results

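Basic leucine zipper (bZIP) transcription factors bind DNA as dimers, each partner holding the DNA with a basic region and its partner with a leucine zipper. The genes described here are 35 mouse bZIP genes chosen by name from the AP-1, ATF, CREB, C/EBP, CNC, small MAF and PAR families. Other bZIP genes, Batf, Maf and Atf4 among them, were left out of this choice. Of the 35 genes, 34 were among the 17493 genes of the RNA sequencing table (Cebpe is not analysed here). Of these 34, 31 passed the filter on low values (at least 10 normalised reads in at least 2 libraries) and were tested. A normalised read is a read count divided by the size factor of its library.

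The cells were C57BL/6 Th17 cultures, that is, naive CD4 T cells from spleen stimulated through CD3 and CD28 in medium that held 20 ng/mL IL-6 together with 2.5 ng/mL TGF-beta, for 48 to 72 h. One group, the controls, is labelled DMSO, and the other received TMP269, an inhibitor of the class IIa histone deacetylases. Each group had 2 libraries, and the 6 chromatin immunoprecipitation and input libraries of the series are not analysed here. The sources used here do not give the dose or duration of TMP269 or the age and number of mice. Nor do they tell if each replicate was its own culture, so the p-values reflect the spread between these samples alone, which may be technical.

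AP-1 is a dimer of a JUN protein with a FOS, BATF or ATF partner. Signals from the T cell receptor raise AP-1, and in Th17 cells it works with IRF4 at many genes of the lineage. CREB-type factors answer cyclic AMP and calcium signals at the cyclic AMP response element (CRE), ATF6 and its relatives are released from the endoplasmic reticulum membrane, and NRF2 and BACH1 pair with small MAF proteins at antioxidant elements. Class IIa histone deacetylases have little DNA binding of their own and are known to be brought to genes by MEF2 and other factors.

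With TMP269, 8 of the 31 tested bZIP genes rose (Jun, Fos, Fosb, Fosl1, Jdp2, Atf2, Atf5 and Maff) and 3 fell (Batf3, Crem and Creb3l2), at a limma adjusted p under 0.05. Among all 12535 tested genes 12.8% rose, 14.7% fell and 27.5% were called in either direction, against 25.8%, 9.68% and 35.5% of the tested bZIP genes. Their median log2 fold change was 0.08, against -0.00365 for all tested genes, and the median absolute log2 fold change was 0.23, against 0.24. At a change of at least 1.5-fold, a size chosen after the values were seen, 8 of the 31 were called, against 9.77% of all tested genes. The 2 groups of libraries did not overlap for 20 of the 31 genes (64.5%), which is near the 66.6% seen over all tested genes. The other 3 genes, Batf2, Cebpa and Creb5, were under the filter.

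Library depth was 20007042 to 25321455 recovered reads. The ribosomal RNA gene Rn45s took 2.20% of DMSO replicate 2 and 0.716% to 1.12% of the other libraries. With equal library totals in place of the authors' size factors the median of all genes moved to 0.10, the share of higher genes among all calls went from 46.5% to 67.3%, and 10 bZIP genes were called higher and 2 lower. The edgeR test on the recovered reads called 3406 genes in all, with 8 bZIP genes higher and 3 lower. The cultures had the T cell markers Cd3e and Cd4 at 4097 to 4821 and 8263 to 9479 normalised reads. Of 8 measured T helper 17 markers 3 were called lower (Il17a, Il17f and Ccr6), with sums over the 8 of 31697 and 34482 in DMSO and 25080.2 and 27122 with TMP269. The sum of 6 CD8 and NK markers was 416 and 612 in DMSO and 387 and 629 with TMP269, and 0 of the 4 tested were called by limma (0 at an unadjusted p under 0.05). Genes of the B lineage were also present, with a summed level over 10 markers of 5143 and 5343 normalised reads in DMSO and 2841 and 2883 with TMP269, and 8 of the 10 were called lower. In bulk RNA, fewer cells of a type and less RNA per cell cannot be told apart, and the part of the B lineage genes in the results below was not tested.

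**Figure D1:**
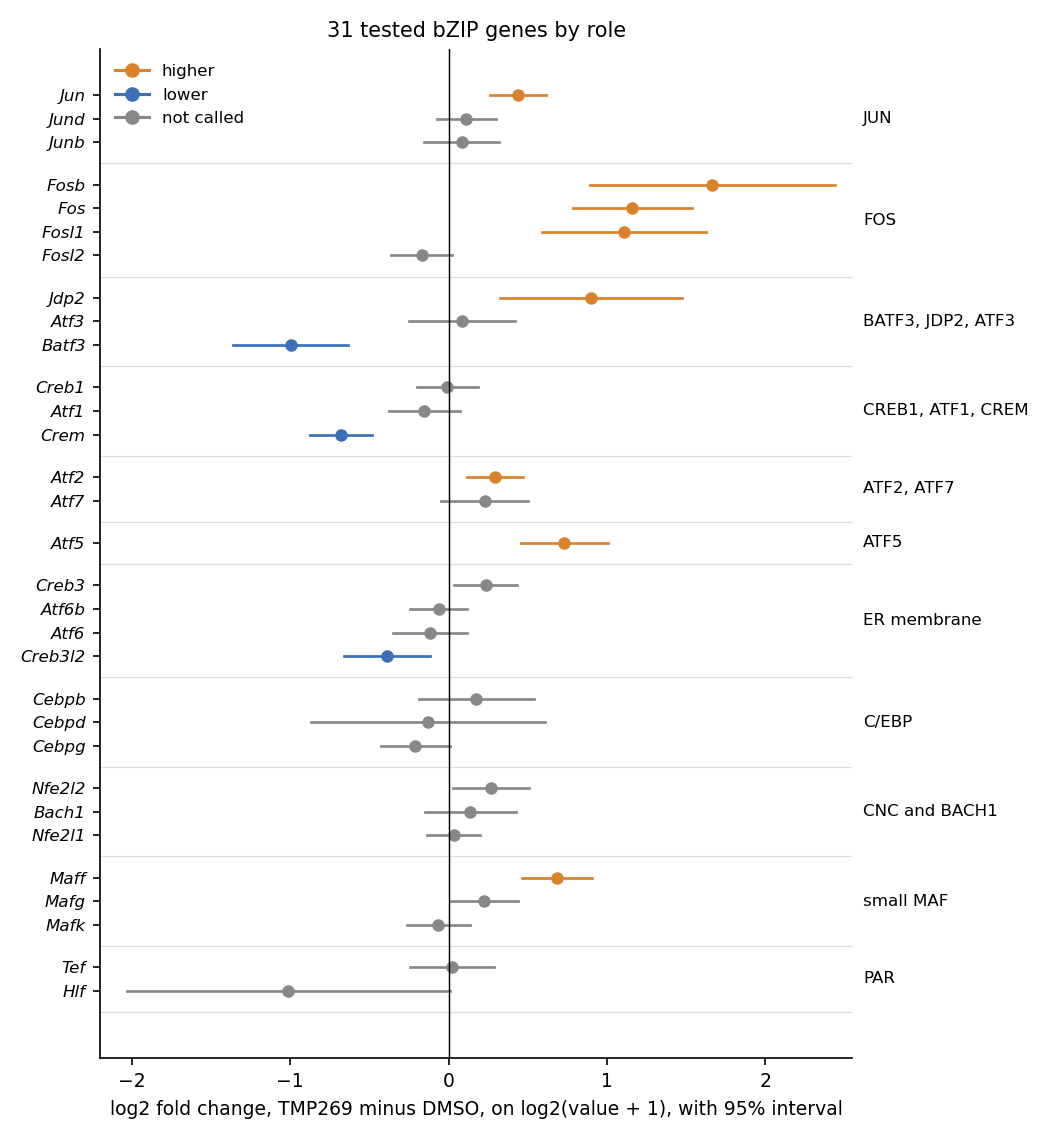
Log2 fold change of the 31 tested bZIP genes (TMP269 minus DMSO, on the log2(value + 1) scale, 2 libraries per group), ordered by role, with 95% intervals from limma as horizontal bars. Orange and blue mark genes called higher and lower. Fosb, Fos and Fosl1 lie farthest to the right, and Hlf and Batf3 farthest to the left.

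Among the FOS genes, the inducible partners of JUN in AP-1, 3 of 4 rose. Fos, the prototype immediate early gene, was at 97.2 and 88.05 normalised reads in DMSO and at 198 and 218 with TMP269. It rose 2.24-fold (log2 fold change 1.16 ± 0.16, SE, n = 2, limma adjusted p = 0.00191). Fosb, a close relative of Fos, was at 18.9 and 12.1 in DMSO and at 43.4 and 57.9 with TMP269, values that rest on 21, 10, 42 and 61 recovered reads. It rose 3.17-fold (95% interval 1.86 to 5.43, limma adjusted p = 0.0086). Fosl1, which encodes FRA-1, was at 50.4 and 39.8 in DMSO and at 104 and 91.2 with TMP269, a 2.15-fold rise (95% interval 1.504 to 3.08, limma adjusted p = 0.00887). For all 3 genes both TMP269 libraries lay above both DMSO libraries.

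Fosl2, which encodes FRA-2, was not called. It was at 6459 and 5826 normalised reads in DMSO and 5306 and 5611 with TMP269, a log2 fold change of -0.17 ± 0.08 (95% interval -0.36 to 0.02, limma adjusted p = 0.168). Fosl2 held 97.5% and 97.7% of the summed FOS group reads in DMSO and 93.87% and 93.85% with TMP269. Fos went from 1.47% and 1.48% of that sum to 3.51% and 3.65%. These shares do not depend on library scaling and are not corrected for gene length. The groups were separate for every FOS gene, and the exact two-sided permutation p was 0.333, the smallest that 2 against 2 libraries can give.

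**Figure D2:**
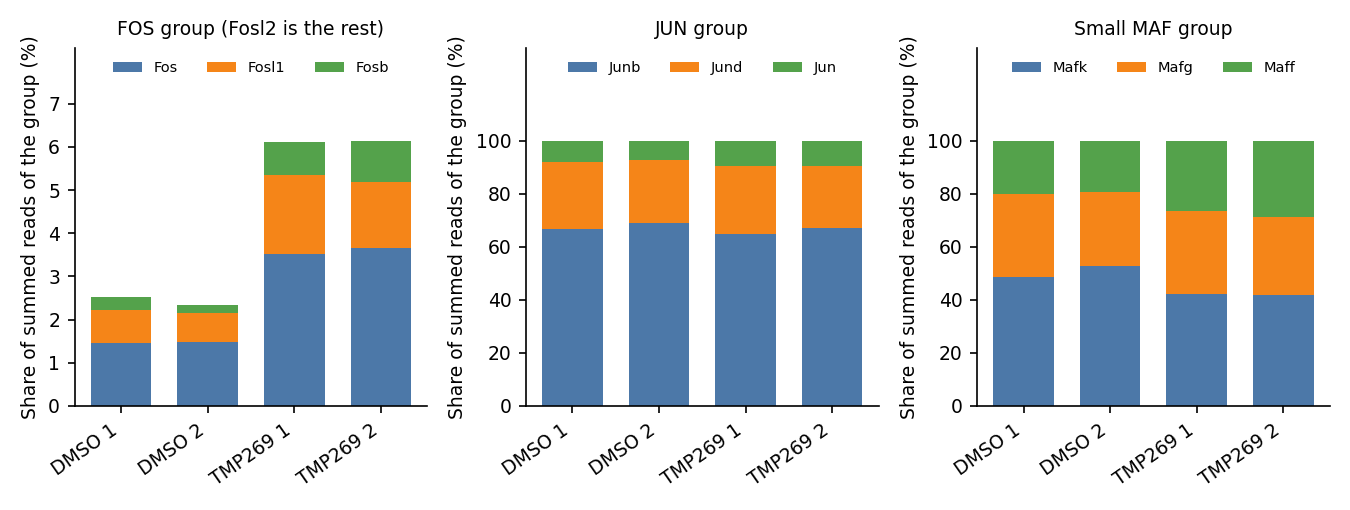
Share of each gene in the summed normalised reads of its group, in percent, for each of the 4 libraries (stacked bars from 0). In the FOS panel Fosl2 makes up the rest to the whole. The shares of Fos, Fosl1 and Fosb are larger in both TMP269 libraries than in either DMSO library, and the same holds for Maff and Jun.

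In the JUN group, the partners that AP-1 dimers share, Jun alone was called. It was at 2412 and 2363 normalised reads in DMSO and at 3138 and 3342 with TMP269, a 1.36-fold rise (log2 fold change 0.44 ± 0.08, limma adjusted p = 0.00455). Junb, which takes part in Th17 development, was at 19708 and 22457 in DMSO and at 21447 and 23134 with TMP269, so that the groups overlapped (limma adjusted p = 0.588, 95% interval of the fold change 0.898 to 1.25). Its change was slightly negative, -0.01, without DMSO replicate 1. Jund, which is known to restrain T cell activation, was at 7425 and 7828 and at 8571 and 7935, with separate groups but no call (fold change 1.08, 95% interval 0.949 to 1.23, limma adjusted p = 0.338). Jun went from 8.16% and 7.24% of the summed JUN reads to 9.46% and 9.71%.

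Sequence before the transcription start was read from the RefSeq promoter windows of build GRCm38.p6, which cover 29 of the 35 genes in 40 windows. The 250 bases before each start were searched on both strands. An element farther upstream or after the start, a CArG box included, would have been missed. A site that departs from the letters of a searched motif, for AP-1 as for the others, was not counted or marked either. The core of the CRE, TGACG, stood in 15 of the 40 windows (37.5%), against 17.8% of all 32851 windows, and the whole CRE, TGACGTCA, which contains that core on either strand, in 3 (7.5%) against 1.55%. The AP-1 motif TGANTCA was in 1 window (2.5%, against 6.75%), the CArG box in 0 (against 1.47%) and the MEF2 element in 2 (5%, against 2.92%). The antioxidant element TGACNNNGC was in 6 (15%, against 10.2%) and the C/EBP motif TTGCNNAA in 2 (5%, against 9.56%). Several genes have more than 1 window, the windows of a gene may overlap, and a match is a description of the letters only.

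The 14 genes with the CRE core were Fos, Fosb, Jdp2 and Maff, which rose, Creb3l2, which fell, Atf1, Atf3, Cebpb, Hlf, Junb, Mafg, Mafk and Nfe2l1, which were not called, and Creb5, which was not tested. Parts of 5 windows are shown as examples, chosen with the results known. They hold the CRE core or the whole CRE in 3 genes that rose, and the MEF2 element in the only 2 genes with a match, Jun and the uncalled Atf3. The whole CRE also stood in Hlf, which was not called, and in Creb5, which was not tested. The Fos stretch is chr12:85473740-85473839 on the plus strand, from base 150 to base 51 before the start, and capitals mark the CRE core. The Fosb stretch is chr7:19310046-19310145 on the minus strand, from base 100 to base 1, also with the CRE core in capitals. The Maff stretch, at the second of 3 listed starts, is chr15:79347420-79347519 on the plus strand with the whole CRE in capitals. The Jun stretch is chr4:95052223-95052322 and the Atf3 stretch chr1:191183334-191183433, both on the minus strand, with the MEF2 element in capitals.
Fos: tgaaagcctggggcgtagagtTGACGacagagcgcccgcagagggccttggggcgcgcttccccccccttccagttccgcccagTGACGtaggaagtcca
Fosb: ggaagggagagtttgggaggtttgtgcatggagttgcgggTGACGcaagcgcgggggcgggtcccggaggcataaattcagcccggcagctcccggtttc
Maff: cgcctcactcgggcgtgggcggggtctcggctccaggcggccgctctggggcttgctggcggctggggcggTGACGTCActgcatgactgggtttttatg
Jun: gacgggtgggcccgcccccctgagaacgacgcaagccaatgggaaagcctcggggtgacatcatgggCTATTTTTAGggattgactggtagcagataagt
Atf3: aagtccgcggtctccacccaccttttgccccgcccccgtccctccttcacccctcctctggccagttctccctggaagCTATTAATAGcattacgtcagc
The CRE core in Fos lies at bases 129 to 125 and 66 to 62 before the start, and in Fosb at bases 60 to 56. The MEF2 element lies at bases 33 to 24 in Jun, which rose, and at bases 22 to 13 in Atf3, which was not called and also holds the CRE core on the other strand, at bases 7 to 3. Fosl1 and Crem are not in the promoter table.

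Batf3, Jdp2 and Atf3 encode small AP-1 partners without the activation domain of FOS or with a repressive role. Batf3, known as the factor of cross-presenting dendritic cells and also made by activated T cells, was at 801 and 639 normalised reads in DMSO and at 413 and 309.6 with TMP269. It fell to 0.501-fold (95% interval 0.389 to 0.645, limma adjusted p = 0.00328), with both TMP269 libraries below both DMSO libraries. The myeloid and dendritic list held 15 symbols, of which Adgre1 and Emr1 name the same gene. Of these symbols 12, Emr1 included, were in the table and 5 were tested, and 0 of the 5 were called by limma at an adjusted p under 0.05. The 2 with an unadjusted p under 0.05 both had higher values with TMP269. Csf1r, Itgam and Zbtb46, the other 3, had log2 fold changes of -0.18, -0.23 and -0.0013, and the median of the 5 was -0.0013. Itgax, which encodes CD11c, was at 28.8 and 20.5 normalised reads in DMSO and at 41.3 and 46.5 with TMP269 (limma adjusted p = 0.0709), and Xcr1, a receptor of cross-presenting dendritic cells, at 12.6 and 10.9 and at 19.6 and 29.4 (limma adjusted p = 0.0893). The summed level of the 12 was 158 and 148 in DMSO and 175 and 227 with TMP269. The dendritic marker Clec9a had 0 reads in both DMSO libraries and 1 in each TMP269 library. The summed B lineage level with TMP269 was 0.546 of that in DMSO, and its part in the fall of Batf3 was not tested.

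Jdp2, a repressor of AP-1 and CRE sites, was at 105 and 61.5 normalised reads in DMSO and at 161 and 142 with TMP269, a 1.87-fold rise (95% interval 1.25 to 2.78, limma adjusted p = 0.0301). The DMSO libraries lay far apart, and without DMSO replicate 2 the log2 fold change went from 0.90 to 0.52 and the call was lost (limma adjusted p = 0.134, in a range of 1.56e-04 to 0.134 over the alternatives). Atf3, a stress-induced repressor, was at 1088 and 801 in DMSO and at 1080.1 and 907 with TMP269. Its groups overlapped and it was not called (limma adjusted p = 0.7), with a change of -0.14 without DMSO replicate 2 and -0.04 without TMP269 replicate 1. Batf2 was at 5.399, 6.03, 4.13 and 2.85 in the 4 libraries (6, 5, 4 and 3 reads), under the filter.

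**Figure D3:**
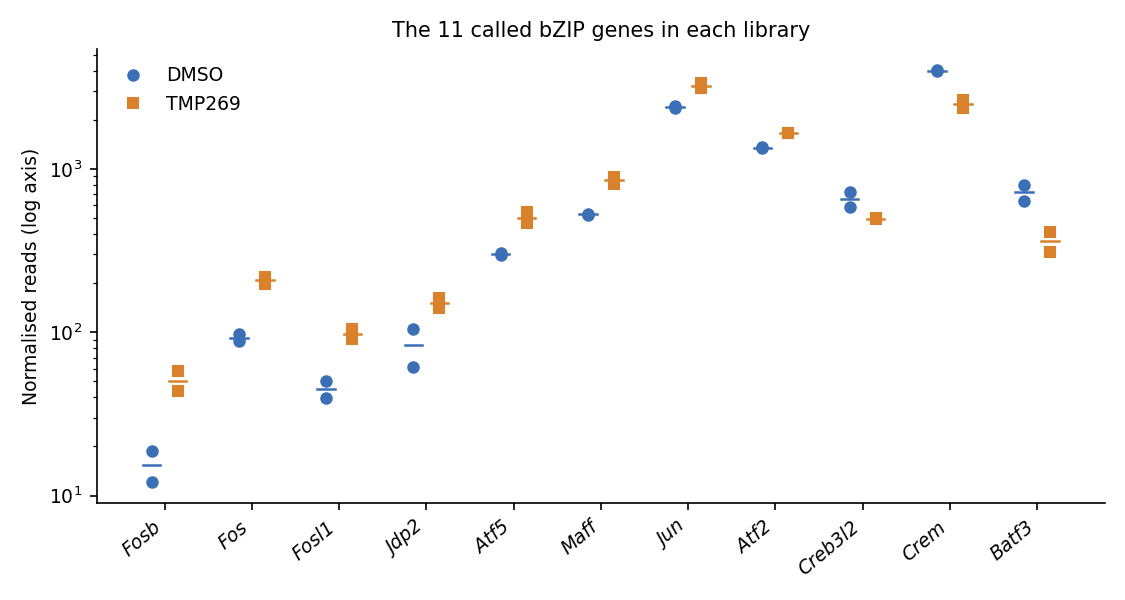
Normalised reads of the 11 called bZIP genes (log axis) in the 2 DMSO libraries (blue circles) and the 2 TMP269 libraries (orange squares), with group means as short lines. The genes are ordered by log2 fold change, and in each of them the TMP269 points do not overlap the DMSO points.

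Among the CREB, ATF1 and CREM genes, which bind the CRE, 1 of 3 was called. Crem, which encodes activators and, from an internal start, the repressor ICER, was at 3959 and 4039 normalised reads in DMSO and at 2346 and 2659 with TMP269. It fell to 0.625-fold (log2 fold change -0.68 ± 0.09, limma adjusted p = 0.00118), the smallest adjusted p among the bZIP genes. The table gives 1 value per gene, so the Crem products cannot be told apart. B lineage markers were lower in the same libraries, and their part in the fall of Crem was not tested. Creb1, the main CREB factor of most cells, was at 2211 and 2502 in DMSO and at 2322 and 2356 with TMP269, with a fold change of 0.995 (95% interval 0.869 to 1.14, limma adjusted p = 0.955). Atf1, its close relative, was at 2331 and 2797 and at 2233 and 2357, and was not called either (95% interval of the fold change 0.769 to 1.05, limma adjusted p = 0.271).

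The stress-kinase-responsive factors Atf2 and Atf7 had values above DMSO in both TMP269 libraries. Atf2, which pairs with JUN, was at 1357 and 1345 normalised reads in DMSO and at 1657 and 1660.2 with TMP269, a rise of 1.23-fold (log2 fold change 0.30 ± 0.08, limma adjusted p = 0.0229). Leaving out DMSO replicate 2 gave a limma adjusted p of 0.0793, TMP269 replicate 1 one of 0.108 and TMP269 replicate 2 one of 0.1003, in a range of 3.1e-04 to 0.108 over the alternatives, while the log2 fold change stayed between 0.29 and 0.40. Atf7 was at 279.8 and 285 in DMSO and at 343 and 319 with TMP269, without a call (limma adjusted p = 0.19). Creb5, of the same group, had 4, 0, 3 and 2 reads, and the 0 in DMSO replicate 2 allows up to 3.62 normalised reads (3 reads, for counting error only). Atf5, a relative of ATF4 that is known for the mitochondrial stress response, was at 297 and 308 in DMSO and at 466 and 542 with TMP269. It rose 1.66-fold (log2 fold change 0.73 ± 0.12, limma adjusted p = 0.00369).

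Of the 4 factors anchored in the endoplasmic reticulum, Creb3l2 was called, but its call was lost in 9 of 16 alternatives. Creb3l2, a factor of the secretory pathway, was at 719 and 586 normalised reads in DMSO and at 492 and 498 with TMP269, a fall to 0.763-fold (limma adjusted p = 0.0403). Leaving out DMSO replicate 1 gave a limma adjusted p of 0.197, TMP269 replicate 1 one of 0.0818 and TMP269 replicate 2 one of 0.0637. It was 0.158 with equal library totals and 0.0609 with DESeq2, in a range of 7.44e-04 to 0.197. Without DMSO replicate 1 its log2 fold change was -0.24 in place of -0.39. Creb3 was at 783 and 806 in DMSO and at 922 and 947 with TMP269, with separate groups and no call (limma adjusted p = 0.0787, but 0.0256 with equal library totals). Atf6, the stress sensor that is cut in the Golgi, was at 1458 and 1685 in DMSO and at 1356 and 1541 with TMP269, and its relative Atf6b at 1984 and 2029.9 and at 1998 and 1848. Both overlapped between groups (limma adjusted p = 0.426 and 0.591), and the change of Atf6b, -0.06, was 0.04 with equal library totals.

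None of the 3 tested C/EBP genes, factors known from myeloid and acute-phase gene control, was called by limma, and 0 had an unadjusted p under 0.05. Cebpg, which pairs with other C/EBP proteins and with ATF4, was at 1496 and 1552 normalised reads in DMSO and at 1219.6 and 1423 with TMP269 (95% interval of the fold change 0.744 to 1.004, limma adjusted p = 0.133). Cebpb was at 163 and 192 and at 186 and 215, with overlapping groups (limma adjusted p = 0.437). Cebpd was at 23.4 and 26.5 and at 25.8 and 19.9, and its 95% interval of the fold change, 0.548 to 1.53, was wide at these low values. Cebpa, the myeloid factor, had 5, 2, 5 and 6 reads in the 4 libraries.

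Among the CNC factors and their small MAF partners, Maff was called. Maff was at 528 and 526 normalised reads in DMSO and at 813 and 887 with TMP269, a 1.61-fold rise (log2 fold change 0.69 ± 0.10, limma adjusted p = 0.00191). Mafg was at 828 and 765 and at 962 and 901, with separate groups and no call (limma adjusted p = 0.103), and Mafk was at 1285 and 1432 and at 1298 and 1294 (limma adjusted p = 0.607). Small MAF proteins lack an activation domain and act through their partner. Maff held 20% and 19.3% of the summed small MAF reads in DMSO and 26.5% and 28.8% with TMP269, and Mafk 48.7% and 52.6% in DMSO and 42.2% and 41.97% with TMP269 (exact two-sided permutation p = 0.333 for each, the smallest possible).

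Nfe2l2, which encodes NRF2, was at 998 and 1139 normalised reads in DMSO and at 1195 and 1381 with TMP269, with separate groups. Its log2 fold change of 0.27 ± 0.11 did not pass (limma adjusted p = 0.0895), but passed without TMP269 replicate 1 (0.0454) and with equal library totals (0.0269), in a range of 0.00131 to 0.422. Nfe2l1, a regulator of proteasome genes, was at 3938 and 4010.4 and at 4072 and 4056, a fold change of 1.02 (95% interval 0.911 to 1.15, limma adjusted p = 0.773). Bach1, the heme-regulated repressor at antioxidant elements, was at 349 and 333 and at 346 and 407, with overlapping groups (limma adjusted p = 0.444).

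The PAR factors Tef and Hlf, known for their daily rhythm in many tissues, were not called. Tef was at 454 and 396 normalised reads in DMSO and at 419.6 and 442 with TMP269 (95% interval of the fold change 0.844 to 1.22, limma adjusted p = 0.905). Hlf was at 13.5 and 14.5 in DMSO and at 7.24 and 5.699 with TMP269, from 15, 12, 7 and 6 reads. It passed the filter only through its DMSO libraries, and with a log2 fold change of -1.01 ± 0.45 its limma adjusted p was 0.127.

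**Figure D4:**
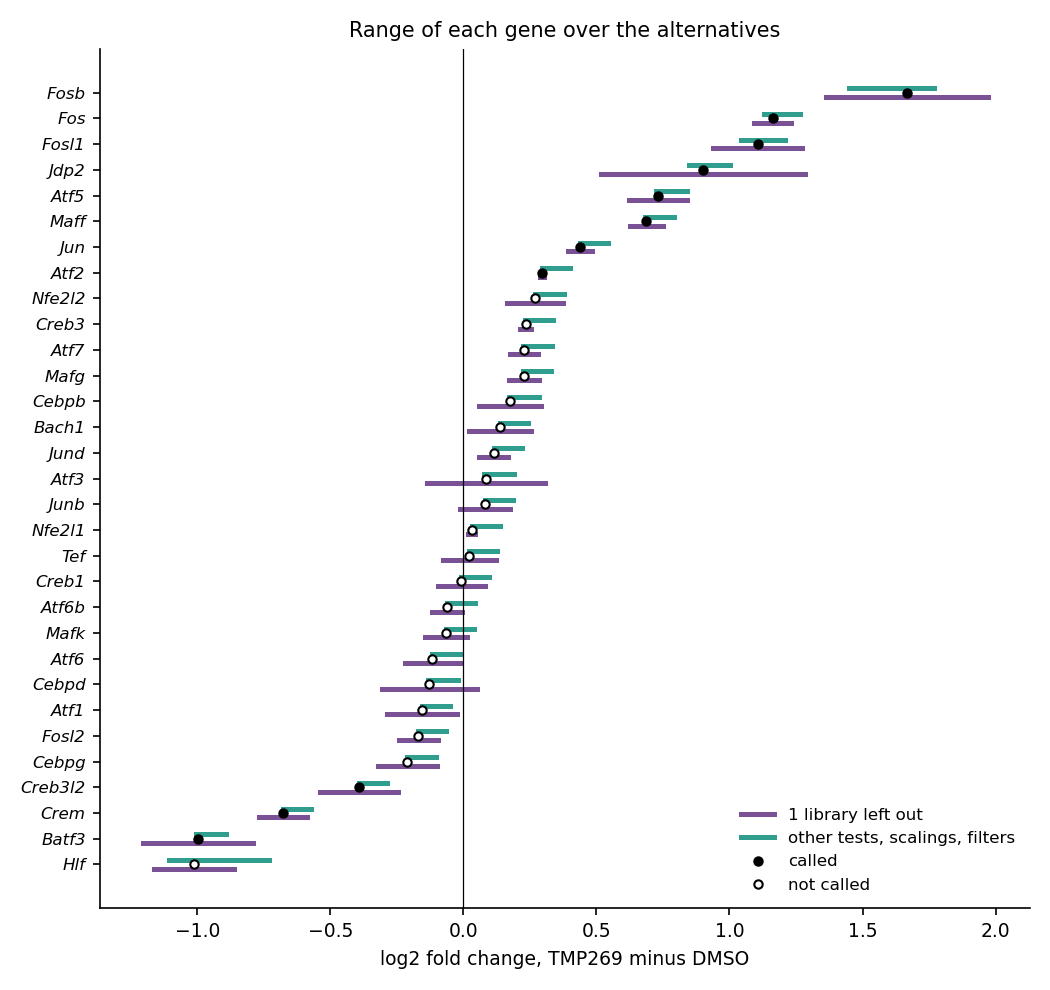
Log2 fold change of the 31 tested bZIP genes (TMP269 minus DMSO). Dots give the reported value, filled where called, purple bars the range when 1 library is left out, and green bars the range over the reported value and the other tests, scalings, pseudocounts and filters. The bars of the 11 called genes do not cross 0.

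The genes around these factors were taken from 11 lists of upstream kinases, cofactors, partners and targets, 91 genes in all, of which 84 were tested. A total of 14 rose and 20 fell, 40.5% of those tested, against 27.5% of all tested genes. Of 11 MAP kinases and their activators, which phosphorylate JUN, FOS and ATF2, 0 rose and 2 fell (median log2 fold change -0.06). With equal library totals 2 rose and 1 fell (median 0.045), and edgeR called 1 higher and 2 lower. The 2 that fell with the authors' size factors were Map2k1, which activates ERK (0.754-fold, limma adjusted p = 0.00722), and Map2k6, which activates p38 (0.566-fold, limma adjusted p = 0.0287). Map2k6 no longer passed if DMSO replicate 2 (0.0998) or TMP269 replicate 2 (0.152) was left out. Of 9 CREB kinases 1 rose and 1 fell (median 0.01). The calcium-dependent kinase gene Camk4 rose 1.27-fold (limma adjusted p = 0.0109, and 0.0661 if TMP269 replicate 2 was left out), and Rps6ka4, which encodes MSK2, fell to 0.73-fold (limma adjusted p = 0.00586).

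Of 8 CREB coactivators and salt-inducible kinases 2 rose and 0 fell (median log2 fold change 0.25, and 4 rose with equal library totals). Crebbp, the acetyltransferase CBP, went from 1405 and 1521 normalised reads in DMSO to 2002 and 2105 with TMP269, a 1.404-fold rise (limma adjusted p = 0.00394). Its relative Ep300 rose 1.29-fold (limma adjusted p = 0.0148, and 0.0719 and 0.0801 if DMSO replicate 2 or TMP269 replicate 1 was left out). Of 6 genes of serum response factor and its partners, which drive Fos through the CArG box, 1 rose, 0 fell and the median was 0.201. Elk4, a ternary complex factor, rose 1.404-fold (limma adjusted p = 0.00511), while Srf itself was at 2049.7 and 2286 in DMSO and at 2089 and 1967 with TMP269 and was not called (limma adjusted p = 0.441). With equal totals 3 genes of this list rose.

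CREB targets moved in both directions. Of 10 genes 2 rose and 2 fell (median log2 fold change 0.11). With equal library totals 3 rose and 1 fell (median 0.21). The orphan receptor gene Nr4a1 rose 1.403-fold (limma adjusted p = 0.00286) and Dusp1, a MAP kinase phosphatase gene, 1.28-fold (limma adjusted p = 0.0414). The cyclic AMP phosphodiesterase genes Pde4b and Pde4d fell to 0.702-fold and 0.819-fold (limma adjusted p = 0.00417 and 0.0225). Dusp1 no longer passed if DMSO replicate 1 (0.0541), DMSO replicate 2 (0.155) or TMP269 replicate 2 (0.241) was left out. Pde4d no longer passed with any 1 library left out (0.052 to 0.154).

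Targets of NRF2 and BACH1 did not move one way. Of 13 tested genes 3 rose and 5 fell (median log2 fold change -0.25, and 3 and 2 with equal library totals). Nqo1, a quinone reductase gene, went from 22.5 and 14.5 normalised reads in DMSO to 59.9 and 98.8 with TMP269, a 4.09-fold rise (limma adjusted p = 0.00389). The heme oxygenase gene Hmox1 rose 1.53-fold and the ferritin light chain gene Ftl1 1.46-fold (limma adjusted p = 0.00672 and 0.00471). Tkt and G6pdx, enzymes of the pentose phosphate pathway, fell to 0.655-fold and 0.719-fold (limma adjusted p = 0.0015 and 0.00328), and the ferritin heavy chain gene Fth1 to 0.799-fold (limma adjusted p = 0.0256, and 0.0604 and 0.265 if DMSO replicate 2 or TMP269 replicate 1 was left out). With DMSO replicate 1 left out 6 genes of this list fell, with DMSO replicate 2 left out 2 did, and leaving out TMP269 replicate 1 or 2 gave 3. Among 6 regulators of NRF2 stability Sqstm1, the autophagy adaptor p62, rose 1.45-fold (limma adjusted p = 0.00191), and Rbx1, a subunit of the ubiquitin ligase, fell to 0.814-fold (limma adjusted p = 0.0227). Rbx1 no longer passed if DMSO replicate 2 (0.109), TMP269 replicate 1 (0.131) or TMP269 replicate 2 (0.0625) was left out.

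Targets of ATF6 were mostly lower. Of 11 chaperone and folding genes 0 rose and 7 fell (median log2 fold change -0.36), 4 fell with equal library totals, and 5 to 8 fell with 1 library left out. Pdia6, a disulfide isomerase gene, went from 8588 and 9537 normalised reads in DMSO to 5647 and 5939.9 with TMP269, a fall to 0.64-fold (limma adjusted p = 0.0015). Manf and Hsp90b1, a secreted stress factor gene and the chaperone GRP94, fell to 0.724-fold and 0.697-fold (limma adjusted p = 0.00456 and 0.00615). The protease genes Mbtps1 and Mbtps2, whose products cut ATF6, had limma adjusted p of 0.287 and 0.435 and were not called. The B lineage markers, whose summed level with TMP269 was 0.546 of that in DMSO, moved the same way as these secretory genes and as Creb3l2, and their part was not tested.

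**Figure D5:**
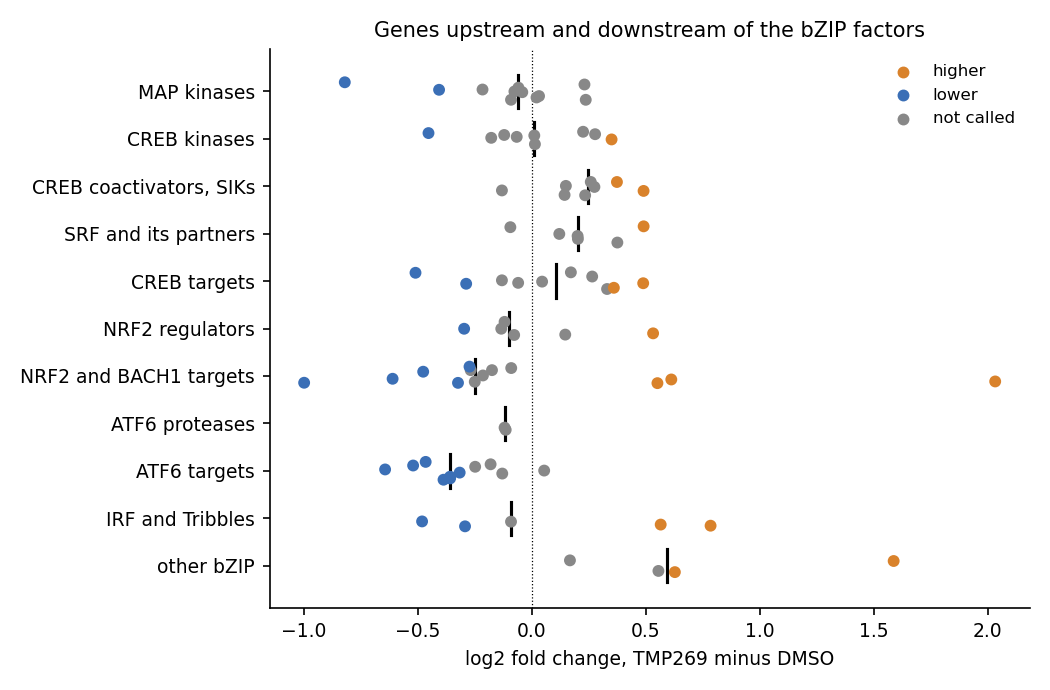
Log2 fold change (TMP269 minus DMSO) of the tested genes of the 11 lists around the bZIP factors. Each point is a gene, orange where called higher, blue where called lower and grey otherwise, and the black line is the median of the list. The ATF6 targets lie mostly to the left of 0, with 7 of 11 called lower.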

How the data were processed

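RNA sequencing libraries of Th17 cells, 2 with DMSO and 2 with TMP269, were analysed from the authors' deposited table of normalised signal, 1 value per gene and library, in which the control columns are headed WT. Every value was a whole multiple of 1 unit per library (100% of values within 1e-06 of a whole number), so the authors had divided whole read counts by a size factor, 0.829 to 1.11. Per the submitters' processing notes, the build was mm9 and the tools CASAVA 1.4, Bowtie2, TopHat2 2.1.0, HTSeq and DESeq2, with no roles given. The sources used here do not give the annotation, the strand setting or the treatment of multiply matching reads, so overlapping, antisense and near-identical genes are uncertain.

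The test was limma 3.58.1 (R 4.3.3), fitted to log2(value + 1) with its mean-variance trend option (prior degrees of freedom 6.84) over genes with at least 10 normalised reads in at least 2 libraries. It was two-sided, with no covariate, and Benjamini-Hochberg adjusted over 12535 genes. A gene rose or fell at an adjusted p under 0.05, and fold changes on this scale understate changes of low genes. An exact test of 2 against 2 cannot go below 0.333. On simulated data for TMP269 against DMSO (12395 genes), the test recovered 64.6% of genes changed 1.5-fold, 92.3% of those changed 2-fold and 98.5% of those changed 4-fold, and 5.14% of its calls were false. The simulation had 65 changed genes at each fold and a dispersion of 0.00675. These rates hold for that setting only and were not measured on the calls reported here.

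The 35 genes and all lists were chosen with earlier results of these data known. All 35 are named. From each of the 11 surrounding lists, up to 3 called genes that rose and 3 that fell were named by smallest p. Some genes that this rule or the marker lists would name are not reported here. The 4 marker lists (T helper 17, CD8 and NK, B lineage, myeloid and dendritic) were checked. Promoter windows came from RefSeq (GRCm38.p6). Alternatives were edgeR 4.0.16 and DESeq2 1.42.0 on recovered reads, limma-voom, other scalings, pseudocounts and filters, a stricter threshold, the replicate number as a block and each library left out, where the lone library is assumed to vary like the others.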

Additional observations from a re-analysis of the deposited data

How the results depend on the processing

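Over 16 alternatives, 8 of the 11 called bZIP genes kept their direction and call wherever they were tested, the other 3 being Jdp2, Atf2 and Creb3l2, which kept their direction. The bZIP genes called higher numbered 6 to 8 and lower 2 to 3 with 1 library left out. All genes called higher numbered 1063 to 1802 and lower 1015 to 1873 in the same fits. All genes called lower were 1042 if library totals were set equal, 1151 if this was done without Rn45s and 1056 with total library size in edgeR, and 717 higher and 770.0 lower passed an adjusted p under 0.01. Replicate numbers are not said to pair the samples. Same-numbered libraries deviated together (r = 0.371 across genes), and the replicate block gave 3008 higher and 3352 lower genes in all, and 11 and 6 bZIP genes, adding Creb3, Nfe2l2, Mafg, Fosl2, Atf1 and Cebpg. Changes near 0 reversed. Creb1 went to 0.0051 with edgeR, 0.0080 with limma-voom, 0.0063 with TMM factors in limma, 0.097 with equal totals, 0.088 without Rn45s and 0.096 with total library size. Atf6b went to 0.042, 0.033 and 0.043, and Mafk to 0.0385, 0.0297 and 0.0387, in the last 3 of these settings. With 1 library left out, Junb ranged from -0.012 to 0.18, Atf3 from -0.14 to 0.31, Creb1 from -0.097 to 0.082, Mafk from -0.14 to 0.012, Cebpd from -0.31 to 0.050 and Tef from -0.078 to 0.12. The causes were not tested. Of 132 recomputed counts in the surrounding lists, many of them small, 41 moved by over 1.5 times, or to or from 0. Low read counts of Batf2, Cebpa and Creb5 kept these genes from being tested, and the intervals of Cebpd and Hlf hold a change of 1.5-fold.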

Other observations

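Of a list of 10 further bZIP genes, 4 were tested. Crebl2, a CREB-like gene of this list, was at 147 and 172 normalised reads in DMSO and at 252 and 240.3 with TMP269, a 1.54-fold rise (limma adjusted p = 0.0159, but 0.0542 without DMSO replicate 1 and 0.0554 without TMP269 replicate 1).

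Among 5 genes of the IRF partners of AP-1 and of the Tribbles proteins, some of which lead C/EBP proteins to degradation, 2 rose and 2 fell. Trib1 went from 432 and 445 normalised reads in DMSO to 652 and 646 with TMP269 (1.48-fold, limma adjusted p = 0.00467), and Trib2 from 638 and 754 to 944 and 1512 (1.72-fold, limma adjusted p = 0.0171). The log2 fold change of Trib2 was 0.44 without TMP269 replicate 2, in place of 0.78, and it remained called. Trib3 fell to 0.716-fold (limma adjusted p = 0.0272, and 0.0596, 0.0588 and 0.186 if DMSO replicate 1, DMSO replicate 2 or TMP269 replicate 1 was left out). Irf8 fell to 0.816-fold (limma adjusted p = 0.0442, and 0.115, 0.0592 and 0.337 if DMSO replicate 1, DMSO replicate 2 or TMP269 replicate 2 was left out, and not called by edgeR). Irf4, the partner of AP-1 in Th17 cells, was at 36120 and 34118 in DMSO and at 34053 and 31869 with TMP269 and was not called (limma adjusted p = 0.548).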
